A study of Mus musculus with 12 samples.

Results

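Of the 577 microRNAs (miRNAs) on a mouse array, 8 that are known from fibroblasts and other mesenchymal cells were followed across 4 breast cancer cell lines. They are mmu-miR-199a-5p, mmu-miR-199b, mmu-miR-199b*, mmu-miR-214, mmu-miR-143, mmu-miR-145, mmu-miR-140 and mmu-miR-140*, written below without the species prefix, and the rule that picks them uses their names. The labels trace 67NR, 168FARN, 4TO7 and 4T1 to spontaneous breast cancer of Balb/C mice, female and of wild-type genotype, and name no treatment. The labels call 67NR, 168FARN and 4TO7 non-metastatic and 4T1 metastatic, and the design compares 4T1 with the other lines. Each line is a single line measured on 3 one-colour Agilent miRNA arrays, 12 in all, with 100 ng of total RNA taken with Trizol per array. Nothing in the labels says that the 3 repeats are separate cultures, so a p-value reflects the spread among these 3 arrays alone, which may be technical.

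A miRNA is cut from a hairpin precursor and can be kept from either arm, named 5p or 3p, and its seed (bases 2 to 8) guides it to target mRNAs. In the mouse, miR-199a and miR-214 are made from a long RNA, Dnm3os, that runs antisense to the gene Dnm3 and is active in developing mesenchyme. The miR-143 and miR-145 pair comes from the long RNA Carmn and is best known from smooth muscle and fibroblasts. The miRNA miR-140 lies in an intron of Wwp2 and is best known from cartilage, where both of its arms are found.

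The array's names are older than the arm names. Its probe for miR-199b has a target on chromosome 1 of the mm9 build at 164148016 to 164148035. Its 3′ end lies 38 bases from that of the miR-199a-5p target, at 164147979 to 164147997, and the files give it the name miR-199a-3p as well. It therefore reads the 3p arm that miR-199a and miR-199b share. The probe for miR-199b* has its target on chromosome 2 at 32174006 to 32174027. The targets of miR-140 and miR-140* lie on chromosome 8 at 110075150 to 110075170 and 110075194 to 110075208, and miR-140* is the 3p arm. The probe for miR-214 targets chromosome 1 at 164153578 to 164153590, with a 3′ end 5593 bases from that of miR-199a-5p.  In RefSeq's annotation Mir199a-2 and Mir214 fall within Dnm3 and Dnm3os, Mir199a-1 within Dnm2, Mir199b within Dnm1 and Mir140 within Wwp2.

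Mature sequences were found in RefSeq (GRCm38.p6) for 4 of the 8 members, and each of these has its own seed. They are written 5′ to 3′ with the seed in capitals.
mmu-miR-199a-5p: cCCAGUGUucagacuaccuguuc
mmu-miR-199b-3p: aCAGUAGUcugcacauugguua
mmu-miR-214-3p: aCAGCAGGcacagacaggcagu
mmu-miR-140-3p: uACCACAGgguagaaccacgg

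The 3 hairpins of the miR-199 family show why a probe for the 3p arm cannot tell the copies apart. Both arms are in capitals, 5p first. No mature 5p arm was found for Mir199b, so that stretch is marked by its match to miR-199a-5p.
Mir199a-2: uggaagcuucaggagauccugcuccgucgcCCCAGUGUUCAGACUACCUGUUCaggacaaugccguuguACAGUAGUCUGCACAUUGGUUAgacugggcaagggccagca
Mir199a-1: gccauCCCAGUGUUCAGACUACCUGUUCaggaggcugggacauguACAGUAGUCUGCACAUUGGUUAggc
Mir199b: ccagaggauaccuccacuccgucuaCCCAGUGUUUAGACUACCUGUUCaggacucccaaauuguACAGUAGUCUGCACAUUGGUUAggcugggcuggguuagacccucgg
The 3p arm is the same in all 3 hairpins. Bases 26 to 48 of the Mir199b hairpin match miR-199a-5p with 1 difference, C10U, counted from 1 at the 5′ end of miR-199a-5p, and carry the same seed. The array has separate probes for miR-199a-5p and miR-199b*, and whether each binds only its own arm was not tested.

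Values are given first as the processed signal of the miRNA's brightest probe, the unit of the files, which was not scaled between arrays. A probe was read, or well above background, when the scanner software marked more than 50% of its kept spots so. For comparisons each array was divided by the 75th percentile of 170 bright probes, values under a floor of -5.58 (log2) were set to it, and a level is the log2 of the result, given with the standard deviation (SD) of the 3 arrays after ±. Differences between lines are log2 ± their standard error (SE) from limma, with n = 3 arrays per line, and a call means a two-sided Benjamini-Hochberg adjusted p below 0.05 over the 224 miRNAs tested. Of the 8 members 6 were tested, each read on all arrays of at least 1 line, while miR-214 and miR-145 were read on no array. The 75th percentiles ran from 358 to 1213, and they were lowest on the 3 67NR arrays, from 358 to 460, so an equal signal stands for a higher scaled level there. Slide 1 held the 67NR arrays and 168FARN replicate 1, and slide 2 the other 8. Arrays of a line correlated at 0.993 or higher. The 67NR arrays correlated with those of other lines at 0.539 to 0.636, the lowest of any pair of lines.

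The 3 members of the miR-199 family were bright in 168FARN and dim or at background elsewhere. In bulk RNA, fewer cells with a miRNA and less of it per cell cannot be told apart. The shared 3p arm, miR-199b, gave signals of 333, 287 and 206 on the 168FARN arrays. It gave 2.20 to 3.13 in 67NR, 1.44 to 2.41 in 4TO7, and 13.1, 14.5 and 13.0 in 4T1. The 168FARN arrays did not overlap those of another line, and the 4T1 arrays lay above all arrays of 67NR and 4TO7.

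**Figure D1:**
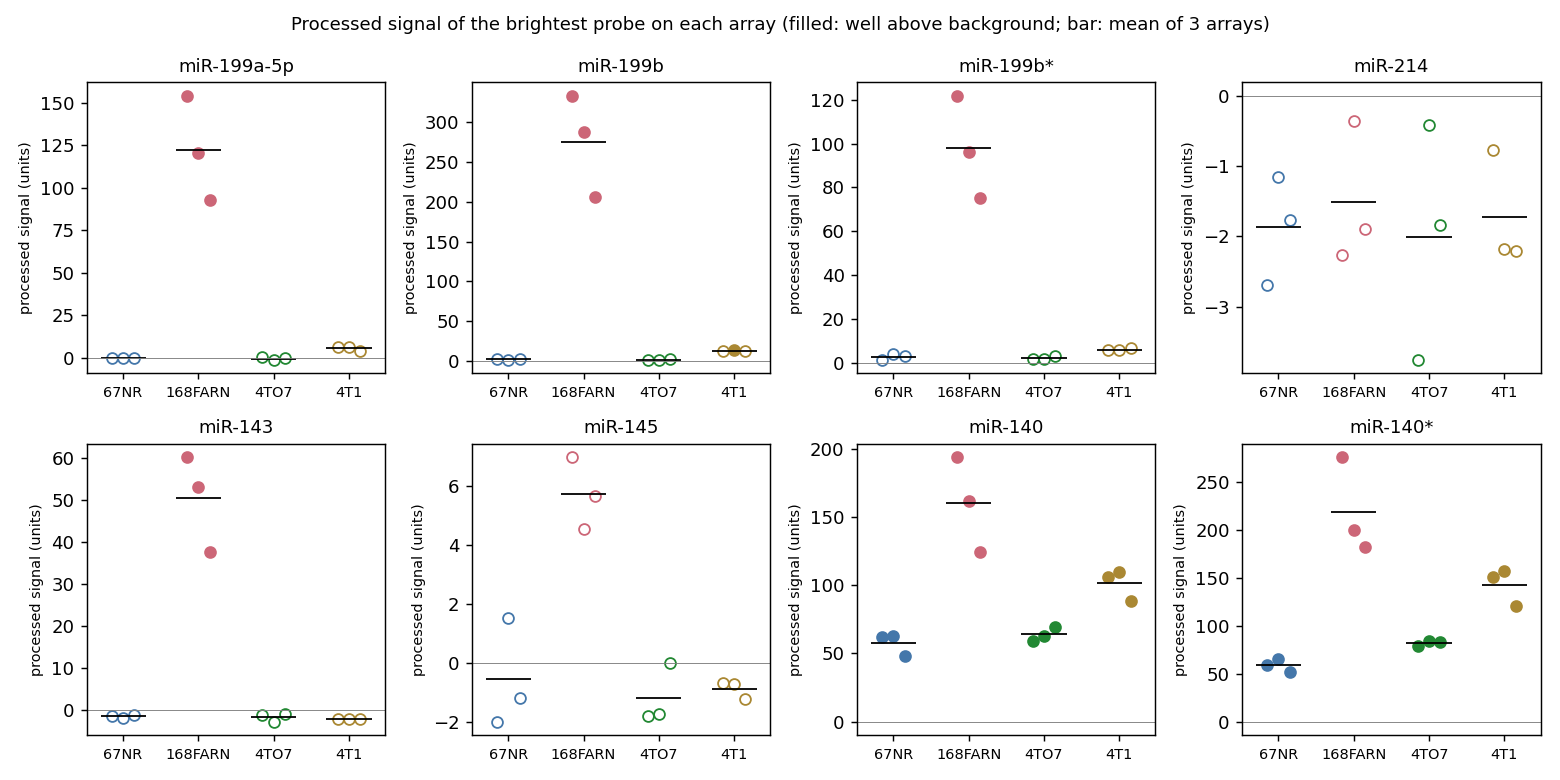
Processed signal (arbitrary units, each panel on its own axis) of the brightest probe of the 8 members on each of 12 arrays, 3 per line, with filled points where the probe was well above background and a bar at the mean. The miR-199 members and miR-143 stand out on the 168FARN arrays, miR-140 and miR-140* are read on all arrays, and miR-214 and miR-145 on none.

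The 5p arm miR-199a-5p gave 154, 120 and 92.5 in 168FARN. Its signals were -0.36 to 0.022 in 67NR, -1.47 to 0.42 in 4TO7 and 3.93 to 6.27 in 4T1. The passenger strand miR-199b* gave 122, 96.2 and 75.1 in 168FARN against 1.12 to 4.02 in 67NR, 1.61 to 3.04 in 4TO7 and 5.61 to 6.58 in 4T1. In both, the 168FARN arrays were separate from the 9 others. The order of the 168FARN arrays was the same for the 3 members, as for the array scale.

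By their brightest probes the miR-199 members stood 2.25 to 3.74 (log2) above the floored lines in 168FARN. The scaled levels were -1.84 ± 0.13 (SD, n = 3) for miR-199b, -3.01 ± 0.08 for miR-199a-5p and -3.33 ± 0.06 for miR-199b*. The size depended on the probe: the second probes stood only 3.04, 0.07 and 0.59 above the floor in the same order. That of miR-199a-5p gave signals of 29.7, 17.9 and 16.4 and was set to the floor on 168FARN replicates 2 and 3. Because the other lines were not read, apart from miR-199b on 1 of 3 4T1 arrays, folds are lower bounds: miR-199b was at least 7.93-fold higher than in 67NR, at least 11.8-fold higher than in 4TO7 and at least 19.9-fold higher than in 4T1. For miR-199a-5p the bounds were 3.52, 5.24 and 9.26, and for miR-199b* they were 2.82, 4.20 and 7.41. The bound sets the mean 168FARN level against, on each unread array, the lowest signal well above background or the probe's own signal where higher, and it moves with the array scale, so the bounds give no order of 67NR, 4TO7 and 4T1. The adjusted p of limma was at most 7.48e-14 for these 3 members against each line. As the unread lines sit at one floor value with no spread, these SE and p are too small, and the bounds are the safer guide.

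**Figure D2:**
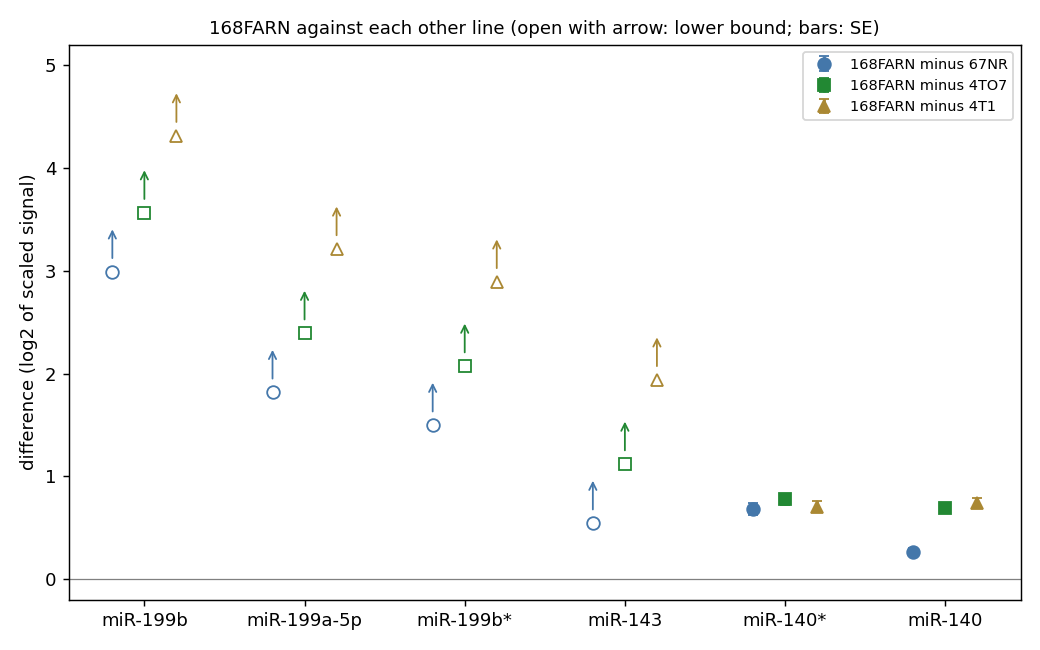
Difference in scaled signal (log2) of 168FARN minus each other line for the 6 tested members, with SE bars for measured differences, and an open symbol with an arrow for a lower bound where the other line was not read. The lower bounds of the miR-199 members run from 2.82-fold to 19.9-fold, and the measured differences of miR-140 and miR-140* from 1.20-fold to 1.71-fold.

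In 4T1 the shared 3p arm lay near the limit of reading. The software marked miR-199b well above background on 4T1 replicate 2 alone by the spot rule (6 of its 10 spots), with 2 spots on replicate 3 and 0 on replicate 1, while its own call for the gene was positive on 3 of 3 4T1 arrays and on 0 of 3 in 67NR and in 4TO7. The second probe for miR-199b gave 7.42 to 9.68 in 4T1 against -0.061 to 1.56 in 67NR and 4TO7. Negative control probes on the 4T1 arrays had means from 0.15 to 2.68, below both probes.

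The other 2 members were weaker in 4T1. Their brightest probes, at 3.93 to 6.58, lay above the negative control range and below every signal marked well above background, the lowest of which was 12.6. Their second probes fell within the range of the negative controls or below it in 4T1. That of miR-199a-5p gave 0.69 to 1.85 in 4T1, above its -1.28 to -0.13 in 67NR and 4TO7, while that of miR-199b* gave -0.0001 to 1.71 in 4T1 and overlapped 67NR and 4TO7 at 0.53 to 2.13. The value of miR-199a-5p on 4T1 replicate 3 was 3.93 over its 9 kept spots and 19.4 with 1 outlying spot restored. With the floor halved, miR-199b was called higher in 4T1 than in 67NR and in 4TO7, by 0.32 against each (limma, adjusted p = 0.00188 and 0.00290). There all 67NR and 4TO7 arrays still sat at the floor with no spread. The 0.32 is thus a distance from that floor, and these p are too small. With the software's total signal per gene miR-199b was higher by 1.03 and 1.12 (limma adjusted p = 1.77e-07 and 3.10e-07).

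**Figure D3:**
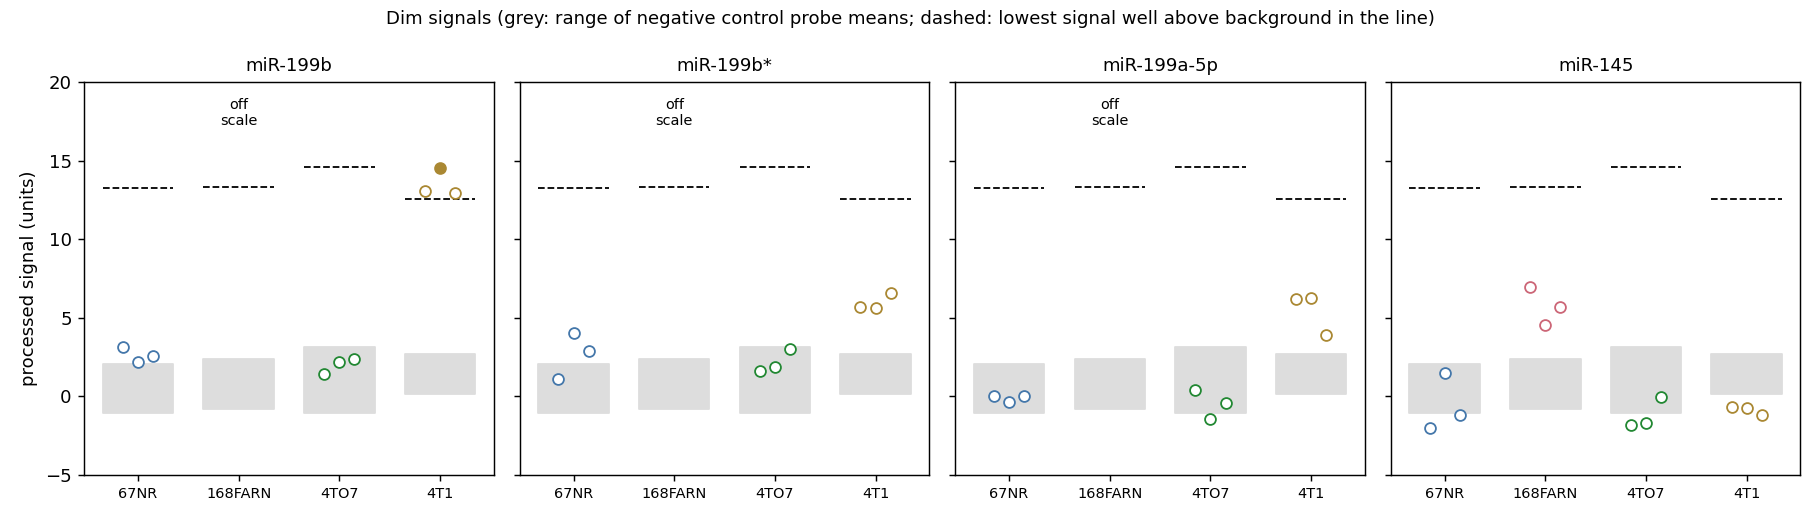
Processed signal (arbitrary units, up to 20) of 4 members on each array by line, filled where well above background, with the range of negative control probe means in grey and the line's lowest signal well above background as a dashed line; points off the scale are marked. In 4T1 the miR-199b signals of 13.0 to 14.5 lie far above the grey range, and in 168FARN the miR-145 signals of 4.55 to 6.98 lie above it.

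The miR-214 probe, whose target ends 5593 bases from that of miR-199a-5p, was read nowhere. Its brightest probe gave -0.36 to -2.27 in 168FARN, -1.15 to -2.69 in 67NR, -0.42 to -3.76 in 4TO7 and -0.77 to -2.21 in 4T1. Every value was below 0, and on all arrays but 168FARN replicate 2 it was below the mean of each negative control probe, also on the array where miR-199a-5p reached 154. No difference was tested. The probes for miR-214 cover only 12 or 13 bases of the miRNA, against 18 or 19 for miR-199a-5p, and the arrays hold no sample in which miR-214 was read, so a probe that does not bind cannot be told apart from an absent miRNA.

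The targets of miR-143 and miR-145 have 3′ ends 1333 bases apart on chromosome 18 (mm9), and RefSeq places Mir143 and Mir145a within Carmn. Of this pair miR-143 was read in 168FARN alone. Its signals there were 60.3, 53.3 and 37.8, and on the 9 arrays of other lines they were all below 0, from -0.79 to -2.69. The 168FARN level was -4.28 ± 0.14 (SD, n = 3), which was 1.30 ± 0.05 above the floor, against 0.66 by the second probe. By the brightest probe it was at least 1.46-fold higher than in 67NR, at least 2.17-fold higher than in 4TO7 and at least 3.83-fold higher than in 4T1, with limma adjusted p = 5.33e-10, 1.22e-09 and 1.25e-09. The SE and these p are too small here as well, since the other lines sit at the floor with no spread. With the normexp background correction the difference from 67NR turned to -0.27 (adjusted p = 0.00397), and that of 4T1 minus 168FARN was -0.18 and missed the threshold (limma adjusted p = 0.0514).

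Its partner miR-145 stayed below the reading threshold. The brightest probe gave 6.98, 4.55 and 5.67 in 168FARN against -1.99 to 1.51 in 67NR, -1.81 to -0.015 in 4TO7 and -1.21 to -0.68 in 4T1. The second probe gave 2.53 to 4.42 in 168FARN and -4.04 to 0.54 elsewhere, so neither probe's 168FARN arrays overlapped those of another line. With all spots kept, outlying ones included, the brightest probe no longer separated the lines, since 4TO7 replicate 1 read 4.73, while the second probe still did, at 2.37 to 4.42 in 168FARN and at most 0.42 elsewhere. The probes for miR-145 cover 13 or 14 bases, and those for miR-143 cover 15 or 16.

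Both arms of miR-140 were read on all 12 arrays and were highest in 168FARN. The signals of miR-140 were 194, 162 and 124 in 168FARN, 61.8, 62.9 and 48.0 in 67NR, 59.2, 62.9 and 69.6 in 4TO7, and 106, 110 and 88.5 in 4T1. The 168FARN arrays were the brightest and did not overlap those of another line. After scaling the levels were -2.61 ± 0.08 in 168FARN, -2.88 ± 0.04 in 67NR, -3.30 ± 0.04 in 4TO7 and -3.36 ± 0.02 in 4T1.

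The level of miR-140 in 168FARN was above each of the other lines. It was 1.61-fold that of 4TO7 (0.69 ± 0.04, limma adjusted p = 3.41e-08), 1.67-fold that of 4T1 (limma adjusted p = 1.72e-08) and 1.20-fold that of 67NR (0.26 ± 0.04, adjusted p = 9.61e-05). The 2 lowest lines, 4TO7 and 4T1, did not differ beyond their spread, by -0.06 (95% interval -0.15 to 0.04, limma adjusted p = 0.294). In the files' own units 67NR stood among the lowest lines, so its second place rests on its smaller array scale.

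The 3p arm miR-140* gave signals of 276, 199 and 181 in 168FARN, 58.9, 65.3 and 51.7 in 67NR, 78.5, 84.1 and 83.1 in 4TO7, and 151, 157 and 121 in 4T1. Scaled levels were -2.16 ± 0.05 in 168FARN and -2.84 ± 0.10, -2.94 ± 0.07 and -2.87 ± 0.01 in 67NR, 4TO7 and 4T1. The last 3 lie together: 4T1 minus 67NR was -0.02 (95% interval -0.14 to 0.10), 4TO7 minus 67NR was -0.09 (-0.22 to 0.03) and 4T1 minus 4TO7 was 0.07 (-0.05 to 0.19). The 168FARN level was 1.61-fold that of 67NR, 1.71-fold that of 4TO7 and 1.63-fold that of 4T1, with limma adjusted p of 2.30e-07, 1.27e-07 and 2.91e-07.

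How 168FARN stands against 4TO7 and 4T1 kept its direction under each treatment of the signal tried, and how it stands against 67NR did not. With no scaling, miR-140 in 168FARN was 1.46 above 67NR, 1.30 above 4TO7 and 0.64 above 4T1 (log2). With the normexp background correction it was 0.21 below 67NR, and with the software's total signal per gene it was level with 67NR (-0.0037). For miR-140* against 67NR the normexp value was 0.10 (limma adjusted p = 0.120) and the other scalings gave 0.44 to 1.88.

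**Figure D4:**
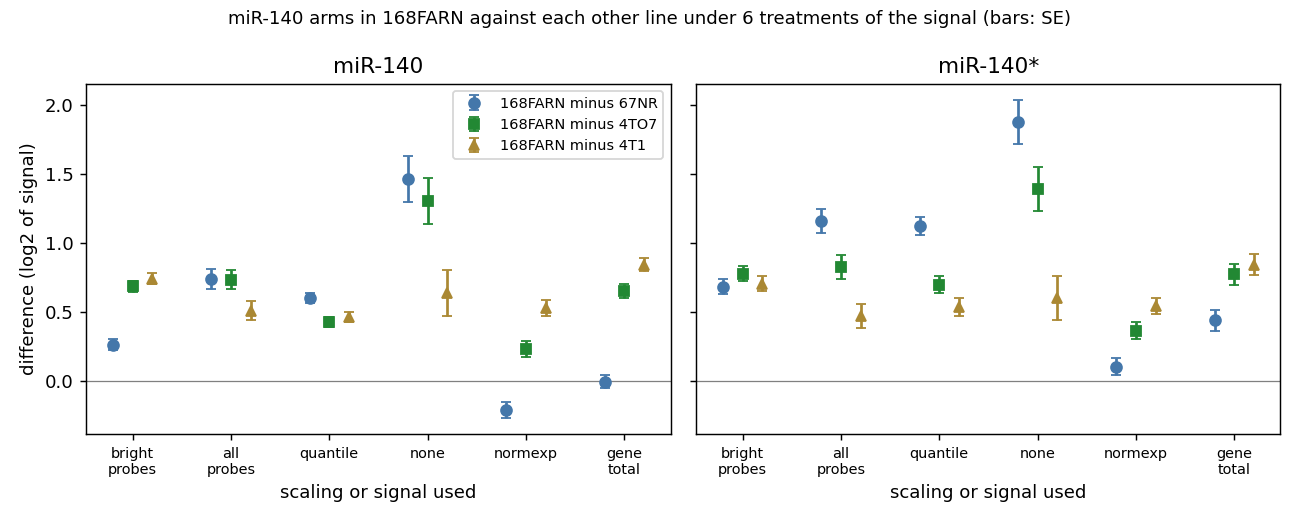
Difference in signal (log2, with SE bars) of 168FARN minus each other line for miR-140 and miR-140* under the scaling to bright probes and 5 other treatments of the signal. All differences from 4TO7 and 4T1 are above 0, while those from 67NR range from -0.21 to 1.46 for miR-140 and from 0.10 to 1.88 for miR-140*.

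Within an array the 2 arms of miR-140 can be set side by side without any scale. The log2 ratio of the miR-140* to the miR-140 signal, as a description over different probes, was -0.07 to 0.11 in 67NR, 0.30 to 0.55 in 168FARN, 0.26 to 0.42 in 4TO7 and 0.45 to 0.51 in 4T1. The 67NR arrays lay below the 9 others. The second pair of probes gave -1.54 to -1.29 in 67NR and -1.19 to -0.79 in the other lines, but its miR-140* probe was not well above background on 67NR replicates 1 and 3, so those ratios add little. The probes for miR-140* cover 14 or 15 bases, and a ratio of 2 probes has no absolute meaning, so no test was made.

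**Figure D5:**
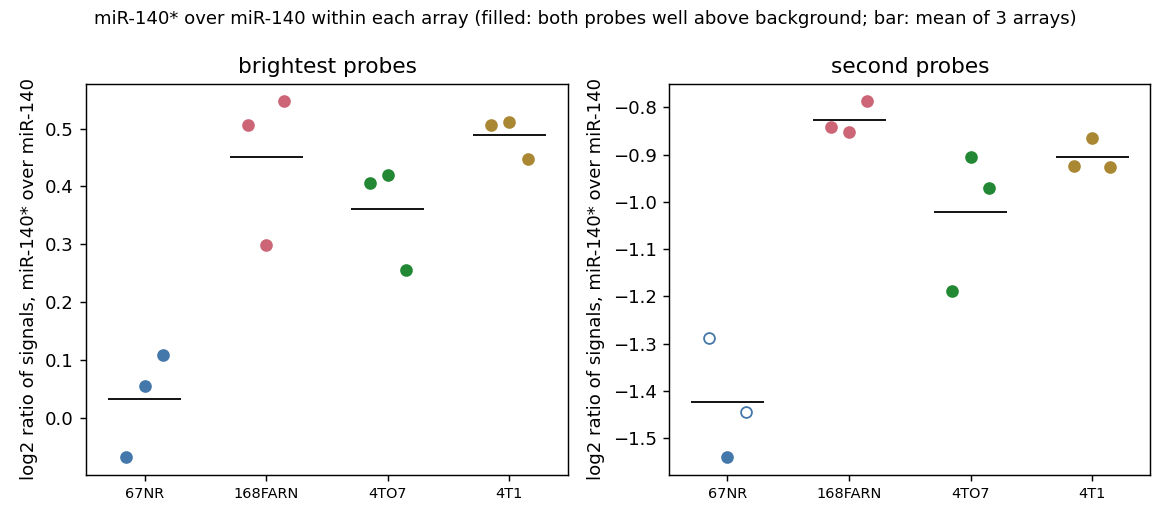
Log2 ratio of the miR-140* signal to the miR-140 signal within each of 12 arrays by line, for the brightest probes on the left and the second probes on the right, with a bar at the mean of 3 arrays and open points where a probe of the pair was not well above background. The 67NR arrays, at -0.07 to 0.11 on the left, lie below all arrays of the other lines there, and on the right 2 of the 3 67NR points are open.

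Counted over the comparisons, 168FARN set the pattern. Of the 6 tested members, 6 were called higher in 168FARN than in 67NR, where 40.2% of the 224 tested miRNAs were called higher and 47.8% lower. Likewise 6 were called higher in 168FARN than in 4TO7 (39.3% of all higher, 35.3% lower) and 6 were called lower in 4T1 than in 168FARN (39.7% of all lower, 34.4% higher). The median difference of the members was 1.77 against each of the lines, beside -0.06 over all tested miRNAs against 67NR and 0 against 4TO7. With unread lines at their bound these medians were 1.09, 1.59 and, for 4T1 minus 168FARN, -2.41. Of the 6, 4 are in the test only because they were read in 168FARN, so their direction there follows from the filter on low signal.

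Few members were called between the other lines, where the miR-199 members and miR-143 sat at the floor and their dim signals in 4T1 did not enter the test. Between 4T1 and 67NR, 1 of 6 was called, miR-140, which was lower in 4T1 by 0.48, where 47.3% of all tested miRNAs were called lower and 32.1% higher. This direction turned with the scaling: scaled to all probes, left unscaled or quantile scaled, miR-140 was higher in 4T1 by 0.23, 0.82 and 0.13 (limma adjusted p = 0.0106, 0.000254 and 0.00533). The same member was called lower in 4TO7 than in 67NR, by 0.42 (48.2% of all lower, 31.7% higher), and under those 3 scalings the difference was 0.0055, 0.16 and 0.17. None was called between 4T1 and 4TO7, where limma called 25.0% of all miRNAs higher in 4T1 and 35.7% lower, and 0 of the 6 passed an unadjusted p below 0.05. In those 3 comparisons 4 members were read in neither line or in too few arrays to have a fold.

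The study's own question, 4T1 against the mean of the 3 non-metastatic lines, gave 6 of 6 members lower in 4T1, where 59.4% of all tested miRNAs were called lower and 28.1% higher. The differences were -1.25 ± 0.04 for miR-199b, -0.86 ± 0.03 for miR-199a-5p, -0.75 ± 0.03 for miR-199b*, -0.43 ± 0.04 for miR-143, -0.43 ± 0.03 for miR-140 and -0.22 ± 0.04 for miR-140*, with limma adjusted p from 1.32e-10 to 0.000726. Scaled to all probes or left unscaled, 5 members were called, with miR-140* higher in 4T1 by 0.19 and 0.49 (limma adjusted p = 0.0266 and 0.00308) and miR-140 not called at -0.02 and 0.28. With quantile scaling miR-140* was at 0.073 and not called, and with a doubled floor miR-143 was at -0.10 and not called (limma adjusted p = 0.0668). In none of the 6 did the 4T1 arrays lie beyond the other 9. For the miR-199 members and miR-143, the mean of the 3 lines holds only 1 read line, 168FARN, so the difference follows that line.

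Slides touch every comparison with 67NR. All 67NR arrays were on slide 1 and all 4TO7 and 4T1 arrays on slide 2. In 4T1 or 4TO7 against 67NR, the miR-140 calls included, line and slide therefore cannot be told apart. Of 168FARN, replicate 1 shared slide 1 with 67NR. On slide 1 alone, with 1 array of 168FARN, its differences from 67NR were 3.71 for miR-199b, 2.60 for miR-199a-5p, 2.26 for miR-199b*, 1.25 for miR-143, 0.23 for miR-140 and 0.71 for miR-140*. On slide 2 the differences of 168FARN from 4TO7 were 3.76, 2.55, 2.24, 1.32, 0.70 and 0.77 in the same order. For the miR-199 members and miR-143 the unread arrays have no spread within a slide, so these are values without a test. For miR-140 and miR-140* on slide 1 the limma adjusted p was 0.0244 and 0.0185, with the lone 168FARN array assumed to vary like the 67NR arrays.

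Other tested miRNAs shared the pattern of the members, with chromosomes as the files give them in mm9. For likeness, each member took the 3 tested miRNAs with the smallest root mean square difference over the 4 line means, each centred on its own mean. The nearest were miR-471 for miR-199a-5p (0.0176), miR-741 for miR-199b (0.0238) and miR-871 for miR-199b* (0.0710), all on chromosome X. The nearest to miR-143 was miR-34c (0.0268), on chromosome 9, and to miR-140 it was miR-29c (0.161), on chromosome 1. Nearest to miR-140* was miR-206 (0.0358), also on chromosome 1. Most of these matches, miR-206 and those to the miR-199 members and miR-143 included, were at the floor in 67NR, 4TO7 and 4T1, so the distance there mainly compares their levels in 168FARN. Of the nearest ones named, miR-29c alone was read in each line. In all, 25 of the 224 tested miRNAs (11.2%) were read on all 168FARN arrays and on no array of another line.

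The other miRNAs of mesenchymal and fibroblast cells on the array did not move as one group. Of 46, 21 were tested, and 15 were called higher and 6 lower in 168FARN than in 67NR (40.2% and 47.8% over all tested miRNAs). Against 4TO7, 12 were higher and 4 lower in 168FARN (39.3% and 35.3% over all), and 4T1 was higher than 168FARN in 4 and lower in 12 (34.4% and 39.7% over all). The median differences were 1.02, 0.40 and -0.68 (0.89, 0.40 and -0.76 at the bounds). Levels of miR-125b-5p and miR-29a were higher in 168FARN than in 67NR by 4.54 and 4.21. They were also higher than in 67NR in 4TO7, by 4.96 and 3.40, and in 4T1, by 5.61 and 2.98. The difference of 168FARN minus 4TO7 was -0.42 for miR-125b-5p and 0.81 for miR-29a. Lower in 168FARN than in 4TO7 were miR-196b, at the floor in 168FARN, by at least 4.61-fold and miR-152 by 1.85-fold. Where 1 of the lines was not read, miR-218 was at least 57.2-fold lower in 168FARN than in 67NR, and miR-10a and miR-497 were at least 5.10-fold and 15.2-fold higher in 168FARN than in 4TO7. In 168FARN miR-10b, read on 2 of 3 arrays but below the floor, was at least 62.9-fold lower than in 67NR. Between 4T1 and 67NR the list split into 10 higher and 10 lower (32.1% and 47.3% over all), and in 4TO7 against 67NR into 11 and 9 (31.7% and 48.2%). In 4T1 against 4TO7 it split into 7 and 9 (25.0% and 35.7%), and in 4T1 against the mean into 6 and 13 (28.1% and 59.4%).

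Markers of other cells were read beside these results, and their part in them was not tested. Of 11 epithelial miRNAs, 3 were read on all arrays of 168FARN, 4TO7 and 4T1 (miR-183, miR-96 and miR-182) and 2 on all of 67NR. The listed miR-200c and miR-141 were each read on 1 of 3 67NR arrays and on no array of another line. Their relatives miR-200a, miR-200b and miR-429, and also miR-205, miR-203 and miR-375, were read on no array of any line. The summed signal of all 11, not scaled between arrays, was 282 to 383 in 67NR, 905 to 1433 in 168FARN, 1229 to 1460 in 4TO7 and 1399 to 1634 in 4T1. It came mainly from miR-183, miR-96 and, outside 67NR, miR-182, and the 67NR arrays had the smallest scale. Of 6 haematopoietic miRNAs, miR-142-3p alone was read, and in 168FARN only (28.7 to 47.3). The summed haematopoietic signal was 44.4 to 61.5 in 168FARN and 10.6 to 19.9 elsewhere. Of 4 muscle miRNAs, miR-206 alone was read, also in 168FARN only (23.8 to 43.8), with the list at 23.8 to 44.9 there and -3.42 to 11.2 elsewhere. The endothelial miR-126-3p was read in every line but 168FARN, where its list summed to 2.67 to 5.77 against 23.4 to 130 in the other lines.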

How the data were processed

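Per the file headers, the authors read one-colour Agilent mouse miRNA arrays with Feature Extraction 10.2.1.3. What they deposited is an intensity per spot after background subtraction, not scaled across arrays, and the series' value table holds the same numbers (largest difference 0). No spot was saturated. An array has 12493 spots, and its 1712 probes belong to 577 miRNAs, with 2 probes of 10 spots for each member.

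Left out were control spots and the 284 to 508 spots per array marked uneven or outlying. Probe means were scaled to the 75th percentile of the 170 probes read on all 12 arrays. The floor, 0.0209 (-5.58 in log2), is the lowest read value as a median of arrays. The brightest probe stood for a miRNA. limma 3.58.1 (R 4.3.3, data.table, version 1.17.8) fitted the 4 lines to all 12 arrays, with 8 residual degrees of freedom, for 7 comparisons. The number of arrays limits the precision.

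The members and lists were chosen with earlier results of these data known. Each tested member named the 3 miRNAs with the most similar line means, and each list the 2 with the smallest adjusted p per direction. Deviations of same-numbered arrays had no common direction: 7 of 18 pairs had a correlation above 0.1 (-0.927 to 0.817). With 3 arrays per line this check cannot show that there is no pairing. Numbers were not treated as pairs. The fit was also run on simulated levels with normal noise, all taken as read and with no floor. In 168FARN against 67NR it recovered 18 of 20 changes of 1.4-fold, with 2 false calls. That run cannot speak to lines that sit at the floor. Alternatives covered scaling, background, probes, filter, floor, slide, replicate block, variance and single arrays. Sequences came from RefSeq's miRNA annotation, GRCm38.p6, matched by name.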

Additional observations from a re-analysis of the deposited data

How the results depend on the processing

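Of 1136 member values under 30 alternatives, 1086 kept their side of the threshold, and those of them that were called kept their direction. Values called neither before nor after count among the 1086 whatever their sign. These include the miR-199 members and miR-143 between 67NR, 4TO7 and 4T1, which sat at the floor in both lines of the main fit. The calls of miR-199a-5p, miR-199b and miR-199b* in 168FARN against each line stayed under every alternative that included them. The single slides are left aside here, as they give values without a test. Since these members are in the test only through 168FARN, with the other lines at the floor, this adds no evidence for the calls. Their size did move: the difference from 67NR fell as low as 0.15 for miR-199b* and 0.42 for miR-199a-5p. Restricting the test to miRNAs read on all arrays left 2 members, both called, in 4T1 against the mean, 4T1 against 168FARN, and 168FARN against 67NR and 4TO7. Members called in 4T1 against 67NR numbered 2 each when scaled to all probes (75th percentile), left unscaled, quantile scaled or given a halved floor, 6 with normexp and 4 with the gene total. In 4T1 against 4TO7 they numbered 2, 2, 1, 1, 2 and 2 in the same order, and in 4TO7 against 67NR 2 with quantile scaling, 6 with normexp and 3 with the gene total. Leaving out single arrays gave 1 to 2 there, because without 67NR replicate 1 miR-140* was called at -0.15 (limma adjusted p = 0.00934), and 6, 1, 6, 0, 6 and 6 elsewhere. The replicate block left the counts at 6, 1, 6, 0, 6, 1 and 6 and changed no call.

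Reversals concerned miR-140 and miR-140*, and miR-143 in 168FARN against 67NR (-0.27, normexp). In 4T1 against 67NR, scaling to all probes, none and quantile gave 0.23, 0.82 and 0.13 for miR-140 and 0.69, 1.28 and 0.59 for miR-140*. In 4TO7 against 67NR they gave 0.0055, 0.16 and 0.17 for miR-140 and 0.33, 0.49 and 0.42 for miR-140*. In 4T1 against the mean they gave 0.19, 0.49 and 0.073 for miR-140*, and no scaling gave 0.28 for miR-140. In 4T1 against 4TO7, scaling to all probes and none gave 0.23 and 0.66 for miR-140, and normexp -0.18 for miR-140*. In 168FARN against 67NR, normexp gave -0.21 and the gene total -0.0037 for miR-140. No scaling moved the median of all miRNAs by up to 0.62 (4T1 against the mean) and normexp by -0.58 (4T1 against 67NR). The normexp correction adds an offset of 50 to each signal before the arrays are scaled. Its part in these shifts was not tested, nor was the cause of the other shifts. Signal over background limits miR-143 and all unread members.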
